A study of Mus musculus with 2 samples.

Results

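The S100 proteins and the annexins are families of calcium-binding proteins, and 10 of their genes are described here in the thymus of Pla2g10-transgenic mice: S100a4, S100a6, S100a10, S100a11 and S100a13, and Anxa1, Anxa2, Anxa4, Anxa5 and Anxa6. The genes were chosen by family name, with ratios of this same contrast already in view, and every array probe that carries the name of one of them was taken. That gave 14 probes for the 10 genes, out of 9396 genes with a measurable signal on the arrays. Because ratios of these arrays were known when the list was drawn up, the ratios below are a description of these pools, and no test was applied to them.

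The transgenic mice had the genotype Pla2g10-Tg/+ and the controls were littermates, both on a C57BL/6 background, 6 months old and fed a standard diet (LFD, CE2). The Pla2g10 product is the secreted group X phospholipase A2, which releases fatty acids from phospholipids. The labels describe the transgenic mice as overexpressing it and do not give the promoter of the transgene. RNA of 4 thymi was pooled for each genotype, so each group is 1 pool, and both pools were hybridised together on 2 two-colour Agilent arrays. On array 1 the transgenic pool carried the red dye Cy5 and the control pool the green dye Cy3, and on array 2 the dyes were exchanged. The labels do not say whether the arrays hold separate pools, so they were taken as repeat measurements of 1 pair of pools. Their spread is therefore technical and says nothing about differences among animals. In pooled bulk tissue, fewer cells of a type and less RNA per cell cannot be told apart.

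S100 proteins are small proteins with EF-hand calcium-binding loops that mostly work as dimers and expose a binding face for partner proteins when calcium rises. Annexins bind acidic phospholipids of membranes in a calcium-dependent way, and several of them pair with an S100 protein. Annexin A1, formerly called lipocortin, was described as a phospholipase A2 inhibitor that glucocorticoids induce, and it is also a ligand of formyl peptide receptors. In lymphoid organs S100a4, S100a6 and Anxa1 are known from memory and effector T cells, myeloid cells and stroma more than from cortical thymocytes.

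Across the arrays, between 28.5% and 34.1% of spots were well above background per channel. The pools carried thymus signal: of 10 markers of immature thymocytes, 9 were measurable, among them Rag1, Dntt, Ptcra and Cd8a. The Pla2g10 probe was well above background in 0 of 4 channels, so it gives no check of the genotype labels. Red exceeded green before normalization, with a median log2 excess over tested probes of 0.57 on array 1 and 0.74 on array 2. The red excess was removed by an intensity-dependent loess curve on each array. Each value below is the log2 of the transgenic level over the control level after that step, given as mean ± SD over arrays (n = 2 arrays). A positive value means a higher level in the transgenic pool. An offset of 50 intensity units added to each channel shrinks the ratios of dim probes.

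S100a4, S100a6 and Anxa1 read higher in the transgenic pool, and the other 7 genes lay near 0 or differed between the arrays. S100a4 was at 0.58 ± 0.05, a 1.49-fold level. Anxa1 was at 0.47 ± 0.08 (1.39-fold) and S100a6 at 0.35 ± 0.13 (1.28-fold). These 3 of 10 genes were at least 0.25 above 0 on each array, a position that 1.68% of all 9396 tested genes reached (158 genes). None of the 10 was at least 0.25 below 0 on each array, where 1.31% of tested genes lay (123 genes). S100a4 alone was at least 0.5 above 0 on each array, which 0.287% of tested genes were (27 genes). With an offset of 0 Anxa1 was past 0.5 on each array too, with a mean of 1.06 above the 0.71 of S100a4, and 1.36% of tested genes were. Above 0 on both arrays were 6 of 10 genes, against 28.3% of tested genes, and below 0 on both was 1 of 10, Anxa5, against 29.1%. With each array centred on its median in place of loess, Anxa1 alone kept its place above 0.25 and above 0 on both arrays, and the shares of tested genes were 0.149% and 2.08%. Since these ratios helped to choose the list, nothing is read from the members' shares beyond the counts. The median was 0.13 over the 5 S100 genes, 0.02 over the 5 annexin genes and 0.00 over all tested genes.

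The regulatory sequence next to the start of these 3 genes is shown because they are the members that read higher together, and that of Anxa2 is shown beside them as a member whose arrays disagreed. Each run is the 250 bases before the annotated start, from RefSeq on GRCm38.p6, at chr3:90603520-90603769 (plus strand), chr3:90612644-90612893 (plus strand), chr19:20390672-20390921 (minus strand) and chr9:69453433-69453682 (plus strand). Capitals mark matches, on either strand, to a TATA box (TATAAA), an AP-1 site (TGANTCA), a GC box (GGGCGG) or a cAMP response element (TGACGTCA).
S100a4: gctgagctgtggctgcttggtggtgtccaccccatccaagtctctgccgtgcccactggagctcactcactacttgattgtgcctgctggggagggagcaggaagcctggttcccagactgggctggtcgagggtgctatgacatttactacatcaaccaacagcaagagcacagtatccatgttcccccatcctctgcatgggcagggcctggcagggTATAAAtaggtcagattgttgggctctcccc
S100a6: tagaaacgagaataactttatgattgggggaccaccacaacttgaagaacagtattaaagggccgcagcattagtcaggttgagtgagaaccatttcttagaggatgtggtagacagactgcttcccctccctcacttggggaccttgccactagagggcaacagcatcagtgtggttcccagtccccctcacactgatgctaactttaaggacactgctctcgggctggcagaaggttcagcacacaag
Anxa1: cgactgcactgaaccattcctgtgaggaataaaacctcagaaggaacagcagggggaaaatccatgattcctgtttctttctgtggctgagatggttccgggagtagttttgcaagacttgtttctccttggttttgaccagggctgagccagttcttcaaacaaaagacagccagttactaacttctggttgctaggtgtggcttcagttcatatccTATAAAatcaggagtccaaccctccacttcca
Anxa2: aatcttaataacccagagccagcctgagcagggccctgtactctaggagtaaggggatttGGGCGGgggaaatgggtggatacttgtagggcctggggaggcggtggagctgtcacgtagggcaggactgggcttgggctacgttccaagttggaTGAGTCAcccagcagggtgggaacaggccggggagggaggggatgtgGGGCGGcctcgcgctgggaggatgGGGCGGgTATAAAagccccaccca

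No motif searched was in all 3 genes that read higher. S100a4 and Anxa1 each held a TATA box, at -31 to -26 and at -32 to -27 from the start. At any position and on either strand, 12.4% of all 32851 promoter windows of this length held one. Among 9 member windows it was in 3 (S100a4, Anxa1 and Anxa2). The S100a6 window had no match to any of the 4 motifs. Anxa2 held an AP-1 site at -95 to -89 and 3 GC boxes, with a TATA box at -17 to -12. Over the 9 member windows in the table, which cover 8 of the 10 genes, an AP-1 site was in 2 (S100a11 and Anxa2) against 6.75% of all windows. A GC box was in the same 2 against 32.7%, and a cAMP response element in 0 against 1.55%. No 2 motifs overlapped in the member windows. A match is only a run of letters, and a missing match says nothing about the factor. S100a10 and Anxa6 have no entry in the promoter table.

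S100a4 encodes a protein that binds non-muscle myosin and is known from migrating cells. Its probe (A_51_P105078, transcript NM_011311, mm8 chromosome 3, 90691847 to 90691907) read 406.5 units above local background in the transgenic pool and 151.6 in the control pool on array 1. On array 2 the transgenic pool read 199.5 and the control pool 228.1. The red channel was thus the brighter one on both arrays, by far more where it carried the transgenic RNA. After loess the ratios were 0.62 on array 1 and 0.54 on array 2. With each array centred on its median in place of loess they were 1.14 and -0.09, with a mean of 0.52, so the sign on array 2 rests on the loess step, and the mean moved by more than the SD between arrays. Among all tested genes, 25 had a higher mean ratio than S100a4.

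S100a6 encodes calcyclin, which binds Cacybp and Sugt1. Its probe (A_51_P281089, NM_011313, mm8 chromosome 3, 90700165 to 90700224) read 167.2 units in the transgenic and 85.7 in the control pool on array 1. On array 2 it read 96.3 and 103.0. The ratios after loess were 0.26 and 0.45, so array 1 lay just past 0.25. Median centring gave 0.66 and -0.02, with a mean of 0.32. S100a6 and S100a4 are near neighbours in the S100 cluster, with S100a5 between them. The S100a5 probe was well above background in 0 of 4 channels, so the gene between them could not be compared.

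The other 3 S100 genes were closer to 0. S100a11, whose protein is a partner of annexin A1, was at 0.13 ± 0.16, with 0.24 on array 1 and 0.02 on array 2. Its probe (A_51_P155643, NM_016740, mm8 chromosome 3, 93611499 to 93611558) could also take RNA of the annotated pseudogene S100a11-ps, which was not tested. S100a13, which takes part in the export of Fgf1 and Il1a proteins that lack a signal peptide, was at 0.11 ± 0.01, with 0.10 and 0.12 on the arrays (A_51_P269852, NM_009113, spanning mm8 chromosome 3, 90601955 to 90610324). S100a10 does not bind calcium and acts as the partner of annexin A2 at membranes. Its probe (A_51_P342871, NM_009112, mm8 chromosome 3, 93649919 to 93649978) read 723.4 units in the transgenic and 424.1 in the control pool on array 1, and 316.2 and 653.3 on array 2. The pool in the red dye was the brighter one on each array by a similar factor, and the ratios after loess were 0.01 and -0.11 (mean -0.05 ± 0.08).

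**Figure D1:**
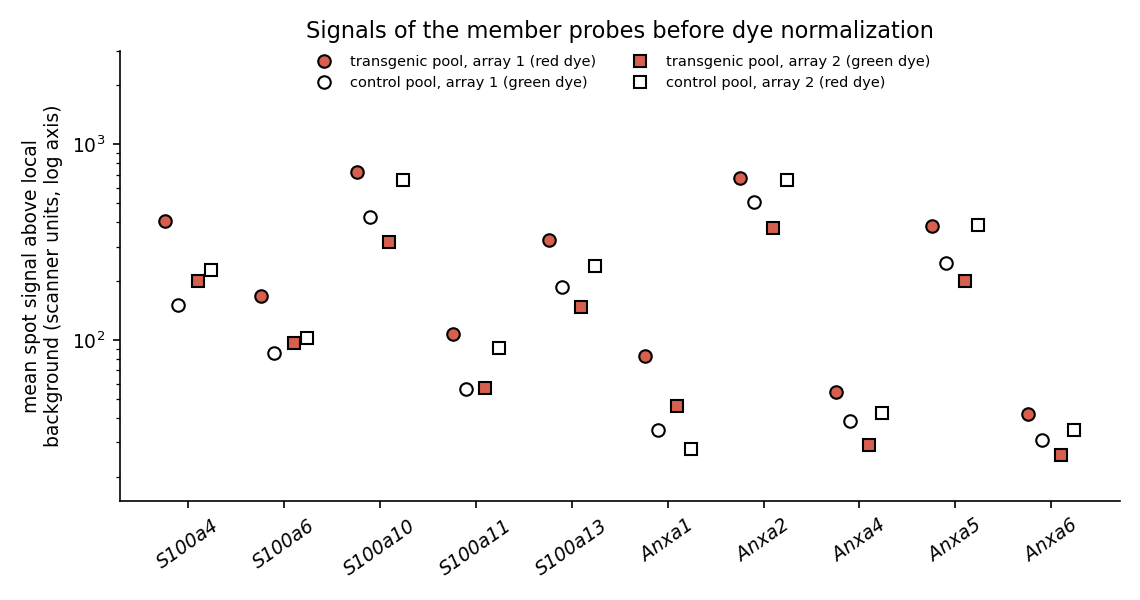
Mean spot signal above local background, on a log axis, of the probe standing for each member gene, with circles for array 1, squares for array 2, filled marks for the transgenic pool and open marks for the control pool, before dye normalization. For S100a10 the red channel is the brighter one on both arrays (723.4 transgenic on array 1, 653.3 control on array 2), while for Anxa1 the transgenic pool is the brighter one in both dyes (82.7 against 34.7, and 46.3 against 27.9).

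Anxa1 was the only member whose transgenic signal exceeded the control signal in both dyes before any normalization. Its probe (A_51_P283590, NM_010730, spanning mm8 chromosome 19, 20440781 to 20442294) read 82.7 units in the transgenic and 34.7 in the control pool on array 1, and 46.3 and 27.9 on array 2. It was well above background in 4 of 4 channels, and its 4 signals are of the same order as the offset of 50, which shrinks its ratio. After loess the ratios were 0.42 and 0.53. With an offset of 0 they were 0.84 and 1.29, with a mean of 1.06, and the software's own log ratios gave 1.03 and 1.43, with a mean of 1.23. Median centring gave 0.67 and 0.31, so Anxa1 was the only member above 0.25 on each array without the loess step.

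Anxa2 encodes the annexin that forms a membrane-binding complex with S100a10 and takes part in plasminogen activation at the cell surface. Its brighter probe (A_52_P62037, NM_007585, mm8 chromosome 9, 69288867 to 69288926) read 670.3 units in the transgenic and 506.2 in the control pool on array 1, and 374.4 and 658.1 on array 2. The ratios after loess were -0.33 and 0.11 (mean -0.11 ± 0.31). The dimmer probe of the same transcript (A_51_P165342, spanning mm8 chromosome 9, 69282203 to 69282977) gave -0.44 and 0.16 (mean -0.14 ± 0.43). Both probes were lower in the red dye than other spots of their brightness on each array, by -0.22 and -0.30 in the dye contrast (red over green, mean of the arrays). For the other 9 measurable member probes the same contrast ran between -0.10 and 0.11. The genotype difference of Anxa2 was smaller than the difference between its arrays on both probes.

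The remaining annexins gave small values that agreed between arrays. Anxa5, whose protein binds phosphatidylserine and is the common reagent for staining apoptotic cells, was at -0.06 ± 0.01 (A_51_P426754, NM_009673, mm8 chromosome 3, 36640692 to 36640751). It was the only member below 0 on both arrays, at -0.06 and -0.05. Anxa4, an annexin known from epithelia, was at 0.02 ± 0.04 on the only probe of its 3 that was well above background (A_51_P256342, NM_013471, mm8 chromosome 6, 86702663 to 86702723). Anxa6, an annexin with a duplicated core that lymphocytes express, was at 0.03 ± 0.03 on 1 of its 2 probes (A_52_P434670, AK077843, mm8 chromosome 11, 54834628 to 54834687). The other 3 probes of Anxa4 and Anxa6 were well above background in 0 of 4 channels and had means between -0.01 and 0.07. The 11 measurable probes of the 10 genes were each well above background in all 4 channels, and none was saturated.

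**Figure D2:**
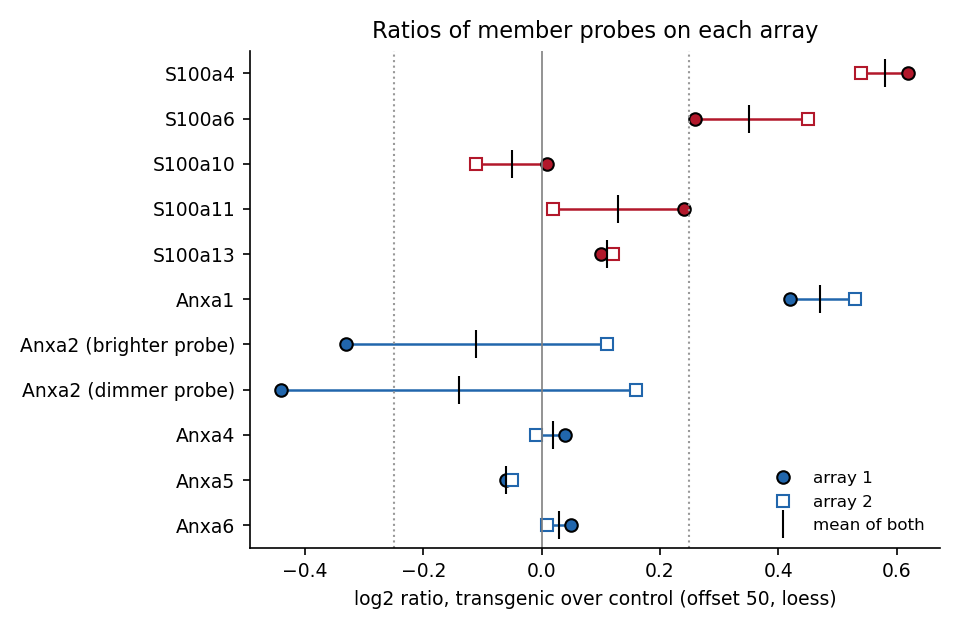
Log2 ratio of transgenic over control on array 1 (filled circles) and array 2 (open squares) for the 11 measurable member probes, with the mean as a vertical tick and dotted lines at 0.25 and -0.25; S100 genes are red and annexins blue. S100a4, S100a6 and Anxa1 lie right of 0.25 on both arrays after loess (with median centring, S100a4 and S100a6 fall to -0.09 and -0.02 on array 2), and the 2 Anxa2 probes cross 0.

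Known protein pairs were set side by side. S100a10 and Anxa2, which form one complex, were at -0.05 ± 0.08 and -0.11 ± 0.31. S100a11 was at 0.13 ± 0.16 beside its partner Anxa1 at 0.47 ± 0.08. The differences within these pairs were not tested.

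**Figure D3:**
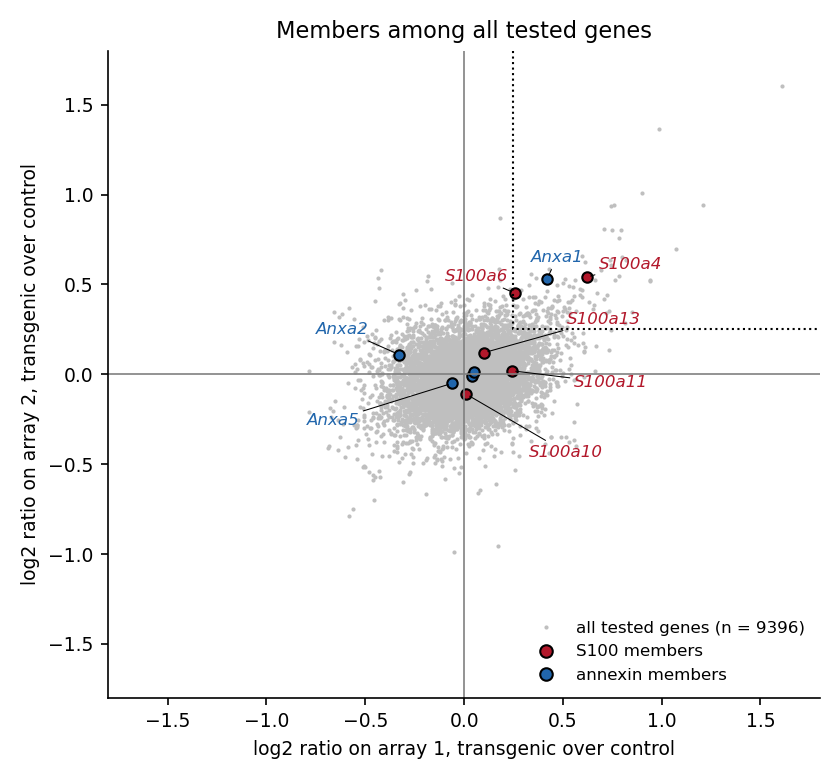
Log2 ratio of transgenic over control on array 1 (x axis) against array 2 (y axis) after loess, with 1 grey point for each of the 9396 tested genes and the 10 members in colour; the dotted corner marks at least 0.25 on each array. S100a4, S100a6 and Anxa1 lie in that corner with 158 genes in all (14 genes with median centring, where only Anxa1 of the members does), while Anxa2 lies left of 0 on array 1 and above 0 on array 2.

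The corner counts depend on how the dyes are balanced: 158 genes lay at least 0.25 above 0 and 123 at least 0.25 below 0 on each array with loess, against 14 and 4 with median centring. With the dye exchange turned, Pearson's r between the arrays across the tested genes, which are not independent replicates, was 0.311 with loess and -0.454 with median centring. With median centring 97.8% of tested genes lay below 0 on array 2, against 53.6% with loess.

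Other members of both families were set beside the 10 genes. Of 12 further S100 family genes, 6 were measurable, and their median was 0.13. Above 0 on both arrays were 4 of the 6, against 28.3% of tested genes. S100a9, which forms calprotectin with S100a8 in neutrophils, was the 1 gene past 0.25 on each array (1.68% of tested genes were), at 0.62 ± 0.01. With median centring its array 2 value was -0.18. Its partner S100a8 was at 0.37 ± 0.34, with 0.61 on array 1 and 0.12 on array 2. S100a14, an epithelial S100 gene, was at 0.22 ± 0.00, below 0.25 on each array. The probes of S100a3, S100a5, S100a7a and S100b were well above background in 0 channels. Of 7 further annexins, 2 were measurable. Anxa8, an annexin of stratified epithelium, was at 0.39 ± 0.05, with 0.42 and 0.35 on the arrays. The control signal did not pass the background call on both arrays, and the transgenic signal was at least 1.3-fold higher. This bound sets the transgenic mean against the higher of the control signal and the lowest signal among probes well above background. Anxa7 was at -0.01 ± 0.06, on a probe well above background in 3 of 4 channels. Its transgenic signal missed the background call on 1 array. S100a8 and S100a14 were picked out after their values were seen.

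Partners and receptors of these proteins gave mostly small values. Of 21 listed genes 7 were measurable, with a median of -0.02 and 1 past 0.25 on each array, against 1.68% of tested genes. That gene was Ahnak, a giant scaffold protein bound by the complex of S100a10 and annexin A2, at 0.36 ± 0.09. Its 4 probes ran from 0.08 to 0.36. With median centring its array 2 value was also -0.18. Myh9, the myosin chain bound by S100a4, was at -0.02 ± 0.23. Cacybp and Sugt1, partners of S100a6, were at -0.16 ± 0.18 and -0.02 ± 0.27. The receptors of these proteins could not be compared: Fpr1 and Fpr2, the formyl peptide receptors for annexin A1, and Ager and Tlr4, receptors for S100 proteins, were well above background in 0 channels. Calcium sensors outside both families were also near 0, with a median of -0.02 over 15 of 17 genes. None was past 0.25 above 0 on each array. The copine gene Cpne1, at -0.51 ± 0.07, was the 1 below -0.25 on each, where 1.31% of tested genes lay. Myh9, Cacybp, Sugt1 and Anxa7 were named after their values were seen.

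**Figure D4:**
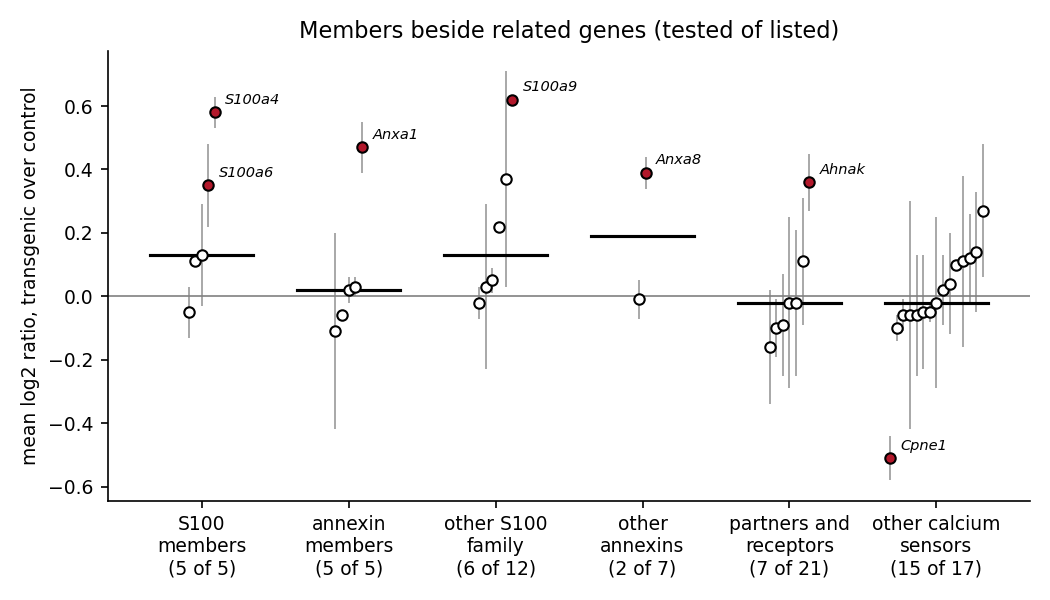
Mean log2 ratio of transgenic over control for each measurable gene of the 6 lists, with bars for the SD between the 2 arrays and a black line at each list's median; filled points are at least 0.25 from 0 on each array in the same direction. The medians are 0.13 (S100 members), 0.02 (annexin members), 0.13 (other S100 family), 0.19 (other annexins, 2 genes), -0.02 (partners and receptors) and -0.02 (other calcium sensors), and with median centring in place of loess the filled points S100a4, S100a6, S100a9 and Ahnak fall below 0 on array 2.

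Markers of cell types that can express S100 and annexin genes are given for the same comparison, and their part in the ratios of S100a4, S100a6 and Anxa1 was not tested. The counts above 0 on both arrays stand against 28.3% of tested genes, and those below 0 on both against 29.1%. Counts at least 0.25 above 0 on each array stand against 1.68%, and those at least 0.25 below 0 against 1.31%. Levels summed over a list are in normalized intensity units, with the offset included, and are given as the range of the 2 arrays. Effector and memory T cell markers had a median of 0.23, with 4 of 4 measurable genes of 10 above 0 on both arrays and 0 at least 0.25 above 0 on each. Their summed level was 613 to 656 in the transgenic and 530 to 557 in the control pool, and Cxcr3, Gzmb and Cxcr6 were not above background. Neutrophil markers, which include S100a8 and S100a9, had a median of 0.35 over 6 of 10 genes, with 5 above 0 on both arrays and 3 at least 0.25 above 0 on each (S100a9, Camp and Chil3). They summed to 1516 to 1659 in the transgenic and 1109 to 1180 in the control pool, and Ngp, Elane, Lcn2 and Retnlg were not above background. Fibroblast markers had a median of 0.10 over 8 of 10 genes, 5 of them above 0 on both arrays, 2 past 0.25 and 1 past -0.25 on each, with Pdgfra not above background. Their sum was lower in the transgenic pool, at 6959 to 7438 against 8509 to 8626, and it holds Thy1, which thymocytes also express, at -0.34 ± 0.09. Dcn and Mgp, which encode matrix proteins of fibroblasts, were the 2 past 0.25, both at 0.52, with SDs of 0.04 and 0.19. Of the other measurable genes Lum was at 0.31 ± 0.14, Col1a2 at 0.12 ± 0.12 and Col3a1 at 0.09 ± 0.05. Col1a1 was at 0.07 ± 0.27 and Sparc at -0.06 ± 0.15.

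Macrophage markers had a median of -0.01 over 9 of 10 genes, with 2 above 0 on both arrays, 0 past 0.25 in either direction on each, and only Cd14 not above background. They summed to 1812 to 1868 in the transgenic and 1743 to 1748 in the control pool. Dendritic cell markers had a median of 0.26 over 6 of 10 genes, 5 of them above 0 on both arrays. The list median was 0.12 on array 1 and 0.40 on array 2. The 1 gene past 0.25 on each was Ccr7, which is also in the mature T cell list. The other measurable genes were Xcr1, Cd74, H2-Ab1, H2-Aa and H2-Eb1, while Itgax, Flt3 and Zbtb46 were not above background. Cd74 was at 0.01 on array 1 and 0.42 on array 2, and H2-Aa at -0.06 and 0.35. The 4 probes of H2-Ab1 ran from 0.05 to 0.30. The 6 genes summed to 2209 to 2428 in the transgenic and 1840 to 2001 in the control pool. Medullary epithelial markers had a median of 0.33 over 7 of 10 genes, 6 above 0 on both arrays and 3 past 0.25 on each (Krt5, Ccl21a and Trp63), with sums of 1303 to 1350 and 884 to 972, and Cldn4, Cd80 and Tnfrsf11a not above background. Of 10 white adipocyte markers 6 were measurable, but Cfd, Car3 and Cidec only through the transgenic channel, where they were at least 3.0-fold, 1.59-fold and 1.24-fold higher. Fabp4 and Lpl, measurable in both pools, were at 0.78 ± 0.04 and 0.38 ± 0.03. Pparg, also measurable in both pools, was at 0.05 ± 0.18, with 0.17 on array 1 and -0.07 on array 2. The 6 genes summed to 1701 to 1767 in the transgenic and 1008 to 1051 in the control pool, with Plin1, Lep and Retn not above background. Immature thymocyte markers were lower, with a median of -0.33 over 9 of 10 genes, 8 below 0 on both arrays and 6 past -0.25 on each, sums of 20740 to 20764 in the transgenic and 26768 to 27072 in the control pool, and Rag2 not above background. Mature T cell markers went both ways: of 9 measurable genes Ms4a4b (0.67 ± 0.17), Ccr7 (0.45 ± 0.15) and Itgb7 (0.38 ± 0.06) were past 0.25 on each array, and Klf2 (-0.54 ± 0.20) was past -0.25. The 2 measurable probes of Klf2 disagreed, with means of -0.54 on the brighter and 0.59 on the dimmer. The 4 probes of Ms4a4b ran from 0.25 to 0.67. The median of the list was 0.08. Its sum, taken over the brightest probes, was lower in the transgenic pool, at 5621 to 5739 against 6385 to 7426. Cortical epithelial, endothelial and smooth muscle markers had medians of 0.16 (8 of 10 genes), 0.02 (2 of 10) and -0.05 (3 of 8). The 1 gene of these lists at least 0.25 from 0 on each array was Acta2 of smooth muscle, at -0.44 ± 0.27. Its 2 measurable probes disagreed, with means of -0.44 on the brighter and 0.14 on the dimmer. With median centring in place of loess, the list medians of the mean ratio kept their sign except that of the endothelial markers, which was -0.01. Its array 2 values are not read for single lists, since nearly all tested genes lay below 0 there. Il7r, Mrc1, Xcr1 and Epcam, 1 gene each of the mature T cell, macrophage, dendritic cell and medullary epithelial lists, also passed only through the transgenic channel. Csf1r and Cd68 of the macrophage list passed only through the control channel, at -0.02 ± 0.05 and -0.09 ± 0.01.

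How much a member's ratio moved with the processing differed between genes. Over the alternatives that keep both arrays, S100a4 ran from 0.52 to 0.73, S100a6 from 0.32 to 0.57 and Anxa1 from 0.47 to 1.23. In the same alternatives S100a10 ran from -0.11 to -0.04, Anxa2 from -0.17 to -0.11 and Anxa5 from -0.12 to -0.06. S100a11 ran from 0.09 to 0.22 and S100a13 from 0.06 to 0.14. Anxa4 stayed between 0.01 and 0.03 and Anxa6 between 0.03 and 0.07. Without any dye normalization, the mean of the exchanged dyes was 0.61 for S100a4, 0.43 for S100a6 and 0.99 for Anxa1, against a median of -0.09 over all tested genes. The mean over exchanged dyes carries less of a dye effect than either array, since an effect equal on both arrays cancels in it.

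**Figure D5:**
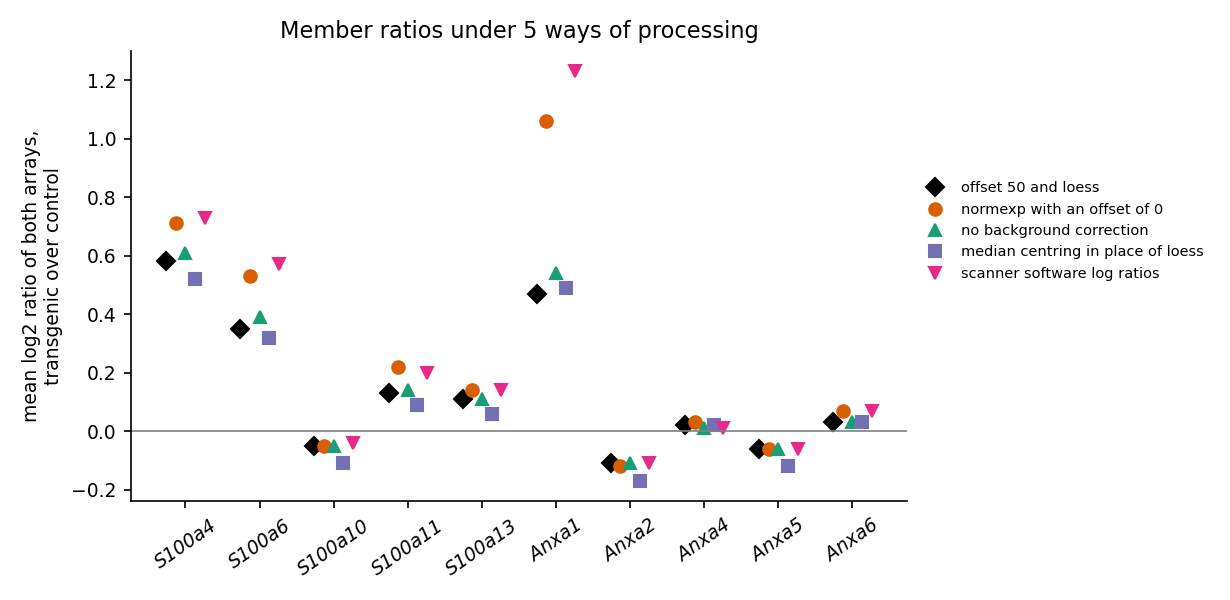
Mean log2 ratio of both arrays, transgenic over control, for each member under 5 ways of processing, 1 mark for each. S100a4, S100a6 and Anxa1 are the 3 highest members under each of them, and Anxa1 moves most, from 0.47 with an offset of 50 to 1.23 with the scanner software's log ratios.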

How the data were processed

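RNA of 1 thymus pool per genotype was measured on 2 dye-exchanged Agilent arrays, labelled from 500 ng. Per the file headers, the deposited scanner files hold linear intensity values per spot and channel, with local background, from Feature Extraction 9.5.1.1. The software's log10 ratio sets red over green. The deposited series values are log10 as well and equalled the ratio of red to green processed signals to within 5e-10 at every spot, so their direction is red over green, not turned; column medians were -0.113 and -0.101.

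Mean signals were corrected by normexp (offset 50) and loess within each array (limma 3.58.1, R 4.3.3), with outlier spots left out (46 and 37), and array 2 was multiplied by -1. Measurable probes were those that passed the software's background call in 1 genotype's channel of each array (12234 of 41174). The brightest such probe stood for each of 9396 genes. The accession named 23374 probes through RefSeq (GRCm38.p6), 6733 were named by symbol, 2919 by synonym and 8148 as in the array design. Probe positions are mm8, per the file headers, and the exon or UTR is not given. Pairs of arrays limit the precision.

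Members, lists, thresholds and motifs were chosen with earlier results of these data known. Named genes were all members and, of the 4 family, partner and calcium sensor lists, those at least 0.25 from 0 on each array; markers were named after their values were seen. Functions were checked on simulated data. Alternatives are given at the end.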

Additional observations from a re-analysis of the deposited data

How the results depend on the processing

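The ratios of S100a4, S100a6 and Anxa1 stayed above 0 under all 10 alternatives, with ranges of 0.52 to 0.73, 0.26 to 0.57 and 0.42 to 1.23, and no member past 0.25 on each array changed sign in its mean. S100a10 and Anxa2 were each below 0 in 9 of 10 alternatives and at 0.01 and 0.11 on 1 array alone. Anxa4 was at -0.01 on array 2 alone. With median centring in place of loess, the count of members at least 0.25 above 0 on each array fell from 3 to 1, and that above 0 on both arrays from 6 to 1. Over all genes these shares fell from 1.68% to 0.149% and from 28.3% to 2.08%. The S100 median was 0.22 with an offset of 0, and ran from 0.12 to 0.24 with either array left out, while the annexin median ran from 0.01 to 0.04. The share of all tested genes at least 0.25 above 0 was 5.82% with an offset of 0, 6.96% with either of the deposited log ratios, 0.584% with no filter on dim probes, and 4.30% and 9.17% without array 1 and array 2. The cause was not tested. The member counts were 3 and 6 under the 7 other alternatives that keep both arrays, which include the settings that could not move S100a4, S100a6 or Anxa1. Dim signals limit Anxa1, Anxa4 and Anxa6 most.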

Other observations

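These S100 genes lie together on chromosome 3 (neighbours from RefSeq, GRCm38.p6), and their values, listed after they were seen, are given in that order. S100a1, S100a13, S100a14 and S100a16 come first and were at 0.05 ± 0.04, 0.11 ± 0.01, 0.22 ± 0.00 and 0.03 ± 0.26 (log2 ratio, mean ± SD of 2 arrays). S100a4 and S100a6 follow at 0.58 ± 0.05 and 0.35 ± 0.13, then S100a8 and S100a9 at 0.37 ± 0.34 and 0.62 ± 0.01. S100a11 and S100a10 come last, at 0.13 ± 0.16 and -0.05 ± 0.08. S100a3, S100a5, S100a7a and S100a7l2 lie among them and were not measurable. Differences between neighbours were not tested.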
